A study of Rattus norvegicus with 18 samples.

Results

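The genes described here are 8 enzymes of lipid synthesis in the healing rat femur: the sterol genes Hmgcs1, Idi1, Fdps, Fdft1, Sqle, Cyp51 and Msmo1, and the fatty acid desaturase gene Scd2. They were taken by name from a list chosen by the early signals of Msmo1 and Scd2, at 0.4 and 1 week after fracture, and the question was whether that early rise ran through the sterol pathway. All 8 were measured, by 24 of the 8740 probe sets that were not controls, and the array named 4737 genes in all by probe sets with a single symbol. The probe set with the highest mean signal led for each gene. Because Msmo1 and Scd2 were picked for their values at 0.4 and 1 week, those values are given as a description with no test, and the other 6 genes were tested. The changes of Msmo1 and Scd2 at later times rest on the same controls and are described likewise, as are their differences between ages.

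The 18 Affymetrix rat expression arrays came from intact female Sprague-Dawley rats that were 6 weeks (young), 26 weeks (adult) or 52 weeks (older) of age at surgery. A rod was placed in the left femur, the shaft was broken across its middle with the skin closed, and tissue was taken at 5 times, the earliest at 0.4 week (3 days by the labels) and the latest at 6 weeks, with sham rats without fracture as the 0 time controls. Each array held RNA pooled from 2 rats and there was 1 array for each age at each time, so a time was replicated only across the 3 ages. The piece collected was a length of femur around the break with callus, cortical bone and marrow, and in such whole tissue fewer cells of a type and less RNA per cell cannot be told apart.

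Signals are in the units of the array software, scaled so that the mean of each array without its extreme 2% at either end was 500. The median signal was 150.9 to 188.6 and between 10.5% and 17.9% of probe sets lay below 20, the floor set before log2 values were taken. The Gapdh 3' to 5' signal ratio, a measure of RNA integrity, was 3.48 and 6.57 on the young arrays of 4 and 6 weeks and 1.15 to 1.83 on the other 16. The actin ratio was 2.29 and 3.06 on those young arrays and 1.08 to 2.12 on the other 16. The tissue of 0 time also held abundant transcripts of muscle, red cells and granulocytes, whose values stand beside the lists of marker genes further on.

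Cholesterol is built in the cell from acetyl-CoA. HMG-CoA synthase (Hmgcs1) works at the entry of the mevalonate pathway, isopentenyl-diphosphate isomerase (Idi1) and farnesyl diphosphate synthase (Fdps) build the isoprenoid chain, and squalene synthase (Fdft1) and squalene epoxidase (Sqle) commit that chain to sterols. Lanosterol demethylase (Cyp51) and methylsterol monooxygenase (Msmo1) then strip methyl groups from the sterol ring, while stearoyl-CoA desaturase 2 (Scd2) makes monounsaturated fatty acids. When cells are short of sterols, the SREBP transcription factors, held back by Insig1 while sterols are ample, are known to raise these genes together, with the CCAAT-binding factor NF-Y as a partner at many of their promoters.

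Promoters are shown for Msmo1 and Scd2, whose early signals opened the question, for Idi1, which rose with them, and for Cyp51, which rose without a CCAAT match. They are RefSeq sequences of build GRCr8, from 250 bases before to 50 bases after the gene's start, written on the gene's strand, with each CCAAT or its complement ATTGG in capitals. Msmo1 lies at chr16:29746863-29747162 (plus strand), Scd2 at chr1:253118127-253118426 (plus strand), Idi1 at chr17:66547475-66547774 (minus strand) and Cyp51 at chr4:30991443-30991742 (plus strand).
Msmo1: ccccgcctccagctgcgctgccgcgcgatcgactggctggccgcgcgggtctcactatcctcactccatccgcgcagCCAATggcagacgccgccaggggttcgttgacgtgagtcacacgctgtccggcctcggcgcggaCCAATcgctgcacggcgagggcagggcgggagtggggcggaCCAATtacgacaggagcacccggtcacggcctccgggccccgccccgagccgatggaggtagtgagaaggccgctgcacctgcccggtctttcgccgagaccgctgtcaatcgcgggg
Scd2: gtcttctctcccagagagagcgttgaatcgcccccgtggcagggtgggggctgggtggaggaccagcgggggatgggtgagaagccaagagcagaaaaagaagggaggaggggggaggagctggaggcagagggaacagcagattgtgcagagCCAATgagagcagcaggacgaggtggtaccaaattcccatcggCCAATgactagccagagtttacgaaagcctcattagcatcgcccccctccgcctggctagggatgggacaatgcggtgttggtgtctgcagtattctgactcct
Idi1: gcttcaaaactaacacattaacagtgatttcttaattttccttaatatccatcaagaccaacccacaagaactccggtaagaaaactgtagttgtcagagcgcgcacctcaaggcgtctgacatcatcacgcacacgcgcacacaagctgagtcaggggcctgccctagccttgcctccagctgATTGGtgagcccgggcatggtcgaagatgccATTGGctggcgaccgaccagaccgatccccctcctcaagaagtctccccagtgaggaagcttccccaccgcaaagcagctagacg
Cyp51: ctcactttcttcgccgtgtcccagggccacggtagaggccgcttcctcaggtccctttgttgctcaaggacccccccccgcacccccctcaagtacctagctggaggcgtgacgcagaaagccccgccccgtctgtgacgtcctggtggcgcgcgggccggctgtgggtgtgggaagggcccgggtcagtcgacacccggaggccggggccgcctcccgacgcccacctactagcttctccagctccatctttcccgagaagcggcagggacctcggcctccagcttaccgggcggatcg

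RefSeq promoters were matched for 6 of the 8 genes: these 4, Hmgcs1 at chr2:53382054-53382353 (plus strand) and Fdps at chr2:176804767-176805066 (minus strand). The Hmgcs1 window lies inside the gene as annotated, which begins at 53379457, and so not at that annotated start. On both strands, CCAAT was found in 5 of the 6, each time 2 or more times, against 37.5% of the 33469 promoters of the table with at least 1 match and 11.2% with at least 2. Msmo1 held 3 matches, with their leftmost bases at -173, -109 and -68 from the start, while Scd2, Idi1, Hmgcs1 and Fdps held 2 each and Cyp51 had no match. The sterol regulatory element TCACNCCAC was in none of the 6 windows and in 1.12% of all promoters, and its shorter core CACNCCAC, which lies within it, was in none of the 6 and in 5.8% of all. A match is a description of letters and not a binding site, and a window without a match says only that these letters are not in it.

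By the leading probe sets, signal of these genes other than Fdft1 was highest on the 0.4-week arrays and lower from 1 week on. In the 24 courses of these 8 probe sets at 3 ages, the highest of the 6 times was 0.4 week in 22 and 0 time in 2, both of Fdft1. Msmo1 and Scd2 were chosen for their early signals, and in the 18 courses of the 6 other genes it was 0.4 week in 16. Courses of the other probe sets were highest at 0.4 week in part and at other times in part. In young rats E12625cds_at of Msmo1 was highest at 2 weeks and rc_AI180442_at of Fdps at 1 week. The share of all probe sets highest at 0.4 week was not counted. At 0.4 week, all 3 arrays lay above all 3 controls for 5 of those 6 genes, each but Fdft1, against 17.4% of all probe sets, and Msmo1 and Scd2 did so too. Of the 6 genes tested by limma with age as a term, 5 were called higher at an adjusted p under 0.05 (Hmgcs1, Idi1, Fdps, Sqle and Cyp51) and none lower, against 14.1% of all probe sets called higher and 17.1% called lower. Fdft1 was not called with all arrays, and without the young arrays it was called lower, with a log2 change of -0.88 (adjusted p = 0.0218). Without the adult arrays 1 of the 6, Idi1, was called after adjustment and 5 had an unadjusted p under 0.05, and the log2 changes of the 4 that lost their call were 2.08 for Fdps, 1.95 for Cyp51, 3.24 for Sqle and 1.16 for Hmgcs1. Without the older arrays 4 of the 6 were called. Over all probe sets the calls in either direction numbered 330 when the adult arrays were left out, 519 when the older ones were, and 2722 with all arrays, and the residual degrees of freedom were 5 with an age left out and 10 with all arrays.

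**Figure D1:**
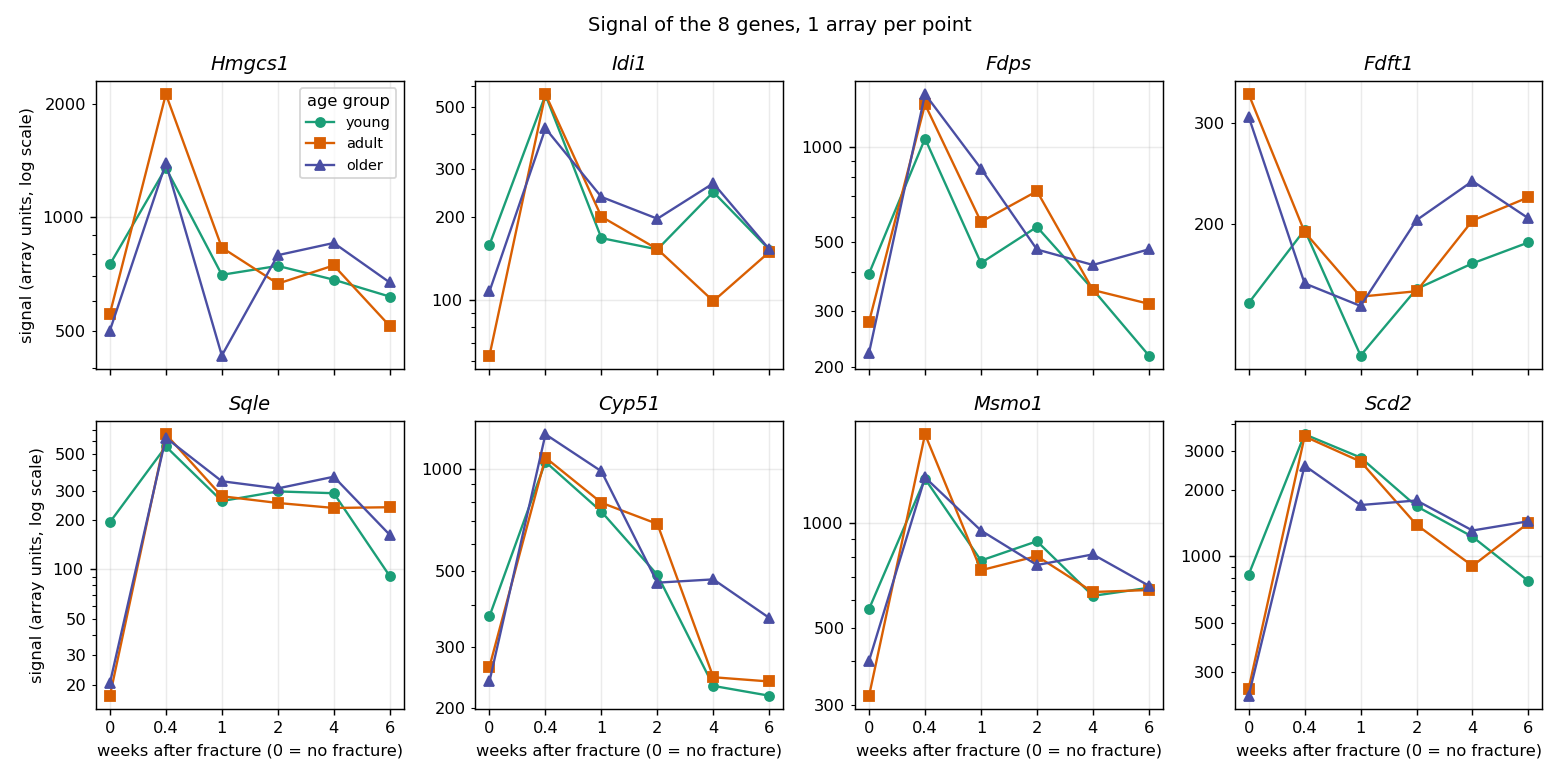
Signal (array units, log scale) of the leading probe set of each of the 8 genes by weeks after fracture, with the 6 times shown as evenly spaced categories, with 1 point per array and 1 line per age group. The 0.4-week points are the highest of the 6 times in 22 of the 24 lines, and the 2 exceptions are the adult and older lines of Fdft1.

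Hmgcs1 condenses acetyl-CoA units into HMG-CoA. In order of time from 0 time to 6 weeks, its signal was 750.9, 1350.9, 704.7, 744.0, 684.0 and 617.2 in young rats. It was 555.9, 2118.4, 831.9, 667.7, 746.2 and 516.1 in adult rats. In older rats it was 501.8, 1390.5, 431.0, 794.2, 855.6 and 672.7. The 3 arrays of 0.4 week stood above the 15 others, and the signals of 1 week overlapped those of 0 time. Against 0 time the log2 change was 1.42 (SE 0.25, limma adjusted p = 0.0023) at 0.4 week and 0.09 (SE 0.25, adjusted p = 0.837) at 1 week. Hmgcs1 was thus called at 0.4 week alone of the 5 later times. Its probe set, X52625_at, was named from the array description of the study, since the platform annotation used for the other probe sets did not list it.

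Idi1 makes the activated building block of isoprenoids by moving a bond in isopentenyl diphosphate. Its signal in time order was 158.5, 554.8, 167.7, 152.6, 246.6 and 152.3 in young rats. Adult rats had 62.8, 559.2, 200.6, 153.0, 99.0 and 149.3. Older rats had 107.4, 419.8, 236.6, 197.2, 265.2 and 152.8. The 0.4-week signals, 419.8 to 559.2, again lay above every other array. The log2 change was 2.31 (SE 0.34, adjusted p = 0.000894) at 0.4 week and 0.97 (SE 0.34, adjusted p = 0.0482) at 1 week. With 50 added to each signal before log2 in place of the floor, the 1-week change was 0.69 and was not called (adjusted p = 0.0504). The second Idi1 probe set, rc_AI045395_at, was at or next to the floor throughout, and the mean of both probe sets changed by 1.15 at 0.4 week (adjusted p = 0.0012).

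Fdps joins those units into farnesyl diphosphate, from which sterols and prenyl groups are both made. Young rats had signals of 395.9, 1063.9, 427.3, 557.1, 352.2 and 217.1. Adult rats had 278.1, 1367.2, 578.1, 723.7, 350.8 and 317.1. In older rats the signals were 221.6, 1473.5, 853.6, 472.1, 421.5 and 472.7. All arrays of 0.4, 1 and 2 weeks lay above the 3 controls. The log2 change was 2.15 (SE 0.31, adjusted p = 0.00078) at 0.4 week, 1.04 (SE 0.31, adjusted p = 0.0254) at 1 week and 0.99 (SE 0.31, adjusted p = 0.0464) at 2 weeks. Both other Fdps probe sets were also called higher at 0.4 week, with log2 changes of 1.95 (SE 0.23, adjusted p = 0.00033) and 3.50 (SE 0.43, adjusted p = 0.000373). With the mean of the 3 probe sets the change at 1 week was 1.81 (adjusted p = 0.000983).

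Sqle adds oxygen to squalene and is among the slow steps of sterol synthesis. In young rats its signal was 193.0, 555.8, 259.3, 296.7, 289.3 and 91.0. It was 17.1, 659.0, 277.4, 252.5, 235.5 and 237.9 in adult rats. Older rats had 20.4, 628.0, 342.0, 309.4, 364.3 and 161.9. The adult and older controls were at or next to the floor of 20 while the young control was not, so the size of the change depended on the floor and on age. The log2 change was 3.84 (SE 0.70, adjusted p = 0.00265) at 0.4 week, 2.76 (adjusted p = 0.0127) at 1 week, 2.73 (adjusted p = 0.0239) at 2 weeks and 2.77 (adjusted p = 0.0471) at 4 weeks. At 0.4 week the arrays of the 3 ages lay close together, between 555.8 and 659.0.

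Cyp51 removes a methyl group from lanosterol. Its signals were 369.9, 1045.9, 747.9, 488.7, 231.4 and 216.6 in young rats. They were 263.3, 1076.2, 794.1, 688.7, 245.3 and 238.4 in adult rats. Older rats had 238.6, 1259.2, 981.6, 463.7, 474.1 and 365.7. At 0.4, 1 and 2 weeks every array lay above all controls, and at 4 and 6 weeks the groups overlapped. The log2 change was 1.98 (SE 0.28, adjusted p = 0.000677) at 0.4 week, 1.55 (SE 0.28, adjusted p = 0.00276) at 1 week and 0.92 (SE 0.28, adjusted p = 0.041) at 2 weeks. Of the 4 other Cyp51 probe sets, AB004096_at and rc_AA963449_s_at were called higher at 0.4 week, with log2 changes of 2.21 (adjusted p = 0.00335) and 1.73 (adjusted p = 0.00101), while rc_AA997614_s_at, at 1.62 (adjusted p = 0.0668), and rc_AI230255_at, at 0.46 (adjusted p = 0.647), were not called.

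Msmo1 acts after Cyp51 on the ring's other methyl groups. Its signal in time order was 566.7, 1346.0, 781.8, 888.7, 618.1 and 652.2 in young rats. It was 318.2, 1809.7, 732.8, 805.1, 634.1 and 642.6 in adult rats. In older rats it was 401.6, 1358.4, 954.3, 758.8, 814.3 and 661.2. All 15 arrays after fracture lay above all 3 controls, and those of 0.4 week were the highest. The early values chose the gene and are given without a test: the log2 change was 1.84 (SE 0.20) at 0.4 week and 0.97 (SE 0.20) at 1 week. The second probe set, E12625cds_at, gave 2.89 (SE 0.48) and 2.25 (SE 0.48). The later changes rest on the same 3 controls as the early ones and are also given as a description: 0.97 (SE 0.20) at 2 weeks, 0.71 at 4 weeks and 0.65 at 6 weeks.

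Fdft1 joins farnesyl units into squalene, and its probe sets disagreed. The leading one, rc_H33426_at, read 145.8, 195.6, 118.1, 154.3, 171.0 and 186.0 in young rats. Adult rats had 337.4, 193.9, 149.6, 152.9, 203.1 and 223.0. Older rats had 308.2, 157.8, 144.1, 203.4, 237.9 and 204.9. The young array of 0.4 week lay above its control and the adult and older arrays lay below theirs. The log2 change was -0.45 (SE 0.24, adjusted p = 0.172) at 0.4 week and -0.86 (SE 0.24, adjusted p = 0.0178) at 1 week, so Fdft1 was called lower at 1 week by this probe set. M95591_at was instead called higher at 0.4 week, with 1.87 (SE 0.53, adjusted p = 0.0216), and M95591_g_at and rc_H33426_g_at gave 0.87 (adjusted p = 0.195) and -0.31 (adjusted p = 0.534). With the mean of the 4 probe sets the change was 0.50 (adjusted p = 0.151) at 0.4 week and 0.02 (adjusted p = 0.998) at 1 week, so no direction of Fdft1 is settled here.

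Scd2 had, in time order, signals of 827.1, 3580.6, 2809.2, 1689.1, 1228.7 and 773.5 in young rats. Adult rats had 251.6, 3500.7, 2694.6, 1392.5, 906.5 and 1419.6. In older rats the signals were 233.8, 2581.4, 1710.7, 1794.7, 1311.4 and 1444.5. Through 4 weeks every array after fracture lay above all controls, and at 6 weeks the young array lay below the young control. The early changes, which chose the gene, were 3.13 (SE 0.42) at 0.4 week and 2.69 (SE 0.42) at 1 week. Against the same controls, and again as a description, the change was 2.15 (SE 0.42) at 2 weeks, 1.64 at 4 weeks and 1.68 at 6 weeks.

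The 6 probe sets annotated to Scd2 did not all move alike. M15114_g_at, AF036761_at and U67995_s_at had changes of 3.27, 1.63 and 4.24 at 0.4 week, the last with its adult and older controls under the floor at 15.7 and 16.2, so that its size depends on the floor. S75730_at had 0.09 (SE 0.38), and M15114_at was at the floor in nearly every array. The array description of the study gives the M15114 sequence another name, a DNA polymerase, so its probe sets are uncertain as measures of Scd2. Over the 16 probe sets of the other 6 genes, 10 were called higher at 0.4 week and none lower, against 14.1% and 17.1% of all probe sets. Each of the 6 genes had at least 1 called higher, for Fdft1 only M95591_at and not its leading probe set.

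**Figure D2:**
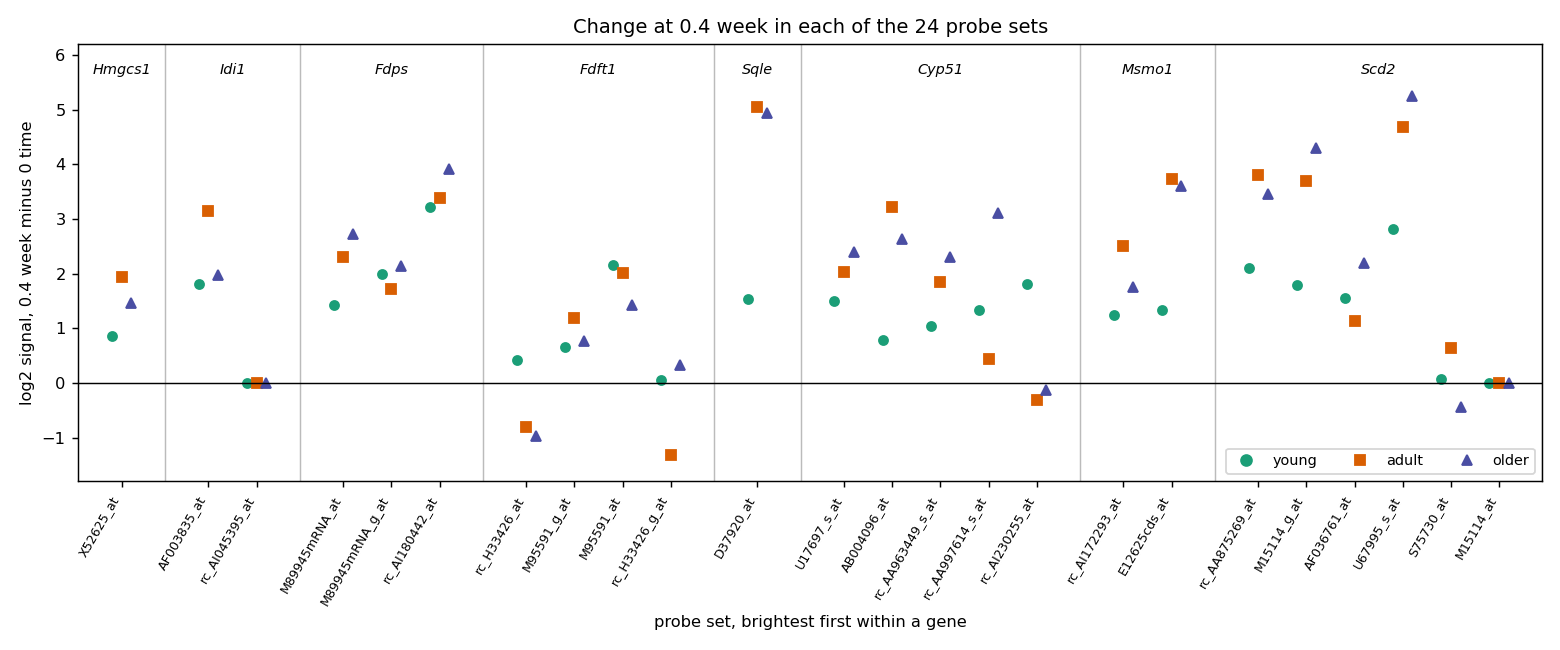
Log2 signal at 0.4 week minus the same-age 0 time array for each of the 24 probe sets of the 8 genes, with signals under 20 set to 20; each point is 1 age group, and probe sets run from the brightest to the dimmest within a gene. Most probe sets lie above 0 at all 3 ages, while those of Fdft1 lie on both sides and 1 each of Idi1 and Scd2 lies at 0 at the floor. Below 0 also lie rc_AI230255_at of Cyp51 in adult and older rats and S75730_at of Scd2 in older rats.

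By 1 week the signals of the pathway were lower than at 0.4 week but several were still above control. Of the 6 tested genes, Idi1, Fdps, Sqle and Cyp51 were called higher, against 14.6% of all probe sets, and Fdft1 lower, against 20.4%. All 3 arrays of 1 week lay above all controls for the same 4 that were called higher, against 17.2% of all probe sets. With the mean of each gene's probe sets 3 of the 6 were called, since Idi1 had an adjusted p of 0.0582 and Fdft1 was no longer called. None of the 6 was called without the adult arrays, when 394 probe sets were called in all, and only Cyp51 without the older arrays, when 244 were called, against 3054 with all arrays.

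At 2 weeks, 3 of the 6 genes were called higher (Fdps, Cyp51 and Sqle), against 9.49% of all probe sets, and for the same 3 all arrays lay above all controls, against 13.8%. None of the 6 was called with the adult or the older arrays left out, but those fits called 0 and 11 of all probe sets, against 1733 with all arrays. Without the young arrays Sqle and Fdps were called higher, Fdft1 was called lower and Cyp51 was not called. At 4 weeks Sqle alone of the 6 was called, against 3.31% of all probe sets, and it alone lay wholly above its controls, against 9.76%. It was called without the young arrays too, among 1174 probe sets, and not without the adult or the older arrays, when 1 and 0 probe sets were called. At 6 weeks limma called none of the 6, against 0.561% of all probe sets, with 1 at an unadjusted p under 0.05, and none lay wholly above its controls, against 6.68%. Without the young arrays Sqle was called at 6 weeks, in a fit that called 1315 of all probe sets, against 77 with all arrays. The comparisons of the 5 times share the same 3 control arrays and are not independent of one another.

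By the leading probe sets of the 7 genes other than Fdft1, the young control had the highest signal of the 3 controls. The young change at 0.4 week was also the smallest of the 3. The leading probe set of Fdft1 went the other way. Its young control was the lowest, at 145.8, against 337.4 adult and 308.2 older. Its young change at 0.4 week was 0.42, against -0.80 adult and -0.97 older. Other probe sets of the 7 genes went both ways. The young control was the highest for AB004096_at of Cyp51 (199.4, against 70.2 adult and 77.4 older). It was not for M89945mRNA_g_at of Fdps (179.5, against 314.3 adult and 196.1 older), whose young change was not the smallest. For young, adult and older rats in that order, the log2 change at 0.4 week was 0.85, 1.93 and 1.47 for Hmgcs1, 1.81, 3.15 and 1.97 for Idi1, and 1.43, 2.30 and 2.73 for Fdps. It was 1.53, 5.04 and 4.94 for Sqle and 1.5, 2.03 and 2.40 for Cyp51, and as a description 1.25, 2.51 and 1.76 for Msmo1 and 2.11, 3.80 and 3.46 for Scd2. The signals reached at 0.4 week differed less, and the young array was the highest of the 3 in 1 of the 7 genes, Scd2. For the same 3 ages the mean log2 signal of all 8 genes was 9.82, 10.03 and 9.79 at 0.4 week and 8.45, 7.53 and 7.57 at 0 time.

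This pattern was widespread on the arrays: of the 1229 probe sets called higher at 0.4 week, the young control was the highest of the 3 controls in 70.1%, and the young change was also the smallest in 65.2%. Over all 8740 probe sets these shares were 27.6% and 21.3%. Each control is 1 array, and the actin 3' to 5' ratio, a measure of RNA integrity, was 1.82 on the young control, 1.20 on the adult and 1.08 on the older. On the 0.4-week arrays this ratio was 1.88 (young), 2.08 (adult) and 1.70 (older). The mean log2 signal of 10 bone matrix and osteoblast genes at 0 time was 10.10 on the older array and 12.63 on the young array. The part of RNA integrity and of tissue makeup in the age difference, or in the change at 0.4 week, was not tested.

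Between older and young rats, the 5 times after fracture gave no calls: 0 of the 6 tested genes, against 0.0% of all probe sets, although Fdps and Cyp51 had an unadjusted p under 0.05. Their signal was higher in older rats by 0.52 (SE 0.19) and 0.47 (SE 0.18) on the log2 scale, with adjusted p values of 0.302 and 0.329 by limma. The early values that chose Msmo1 and Scd2 enter both age comparisons, so these genes are described only. Their differences after fracture were 0.10 (SE 0.12) and -0.02 (SE 0.23), and those of the change from 0 time were 0.59 (SE 0.29) and 1.8 (SE 0.57). For the change from 0 time, older against young, Sqle alone of the 6 leading probe sets tested was called higher, with a difference of 3.60 on the log2 scale (SE 0.54, adjusted p = 0.00413), and none was called lower, against 3.57% and 3.02% of all probe sets. It rests on 1 control array for each age, 20.4 in the older control and 193.0 in the young, while the mean log2 level of Sqle after fracture differed by 0.36 (SE 0.22, adjusted p = 0.542). With 50 added to each signal before log2 in place of the floor, the difference of the Sqle changes was 2.07 (adjusted p = 0.0236).

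Beyond the 8 genes, 3 other enzymes of the pathway were called at 0.4 week. A list of 21 cholesterol synthesis genes held 16 that were measured. Of the 15 tested at 0.4 week, 8 were called higher and none lower, against 14.1% and 17.1% of all probe sets, and 14 had a change above 0. The 8 include 5 of the genes described above. Their median log2 change was 1.08, against -0.13 for all probe sets. Among the 9 that are not described above, 3 were called higher by limma. They were Hsd17b7, a keto-reductase, with 1.33 (SE 0.41, adjusted p = 0.0312), Ebp, the sterol isomerase, with 0.69 (SE 0.22, adjusted p = 0.0317), and Dhcr7, which makes cholesterol in the last step, with 0.58 (SE 0.16, adjusted p = 0.0197).

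Dhcr7 had 338.9 (young), 394.7 (adult) and 426.8 (older) at 0.4 week, against 251.3, 231.5 and 292.5 at 0 time, with no overlap. Ebp had 453.5, 529.5 and 373.0 at 0.4 week, against 324.0, 271.1 and 240.9 at 0 time, again with no overlap. Hsd17b7 was dim, with 92.3, 158.6 and 86.7 at 0.4 week, against 25.9, 51.1 and 60.6 at 0 time. The other 6, Acat2, Mvk, Mvd, Lss, Lbr and Nsdhl, had changes of 0.22 to 1.16 and were not called. Without the adult arrays 1 of the 15 was called and without the older arrays 4. At 1 week 4 of the 15 were called higher and 1 lower, all of them among the 8 genes, with a median of 0.42, against -0.13 for all probe sets, and the 9 others had a median of 0.29 and no calls. Without the adult arrays none was called at 1 week and without the older arrays 1.

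**Figure D3:**
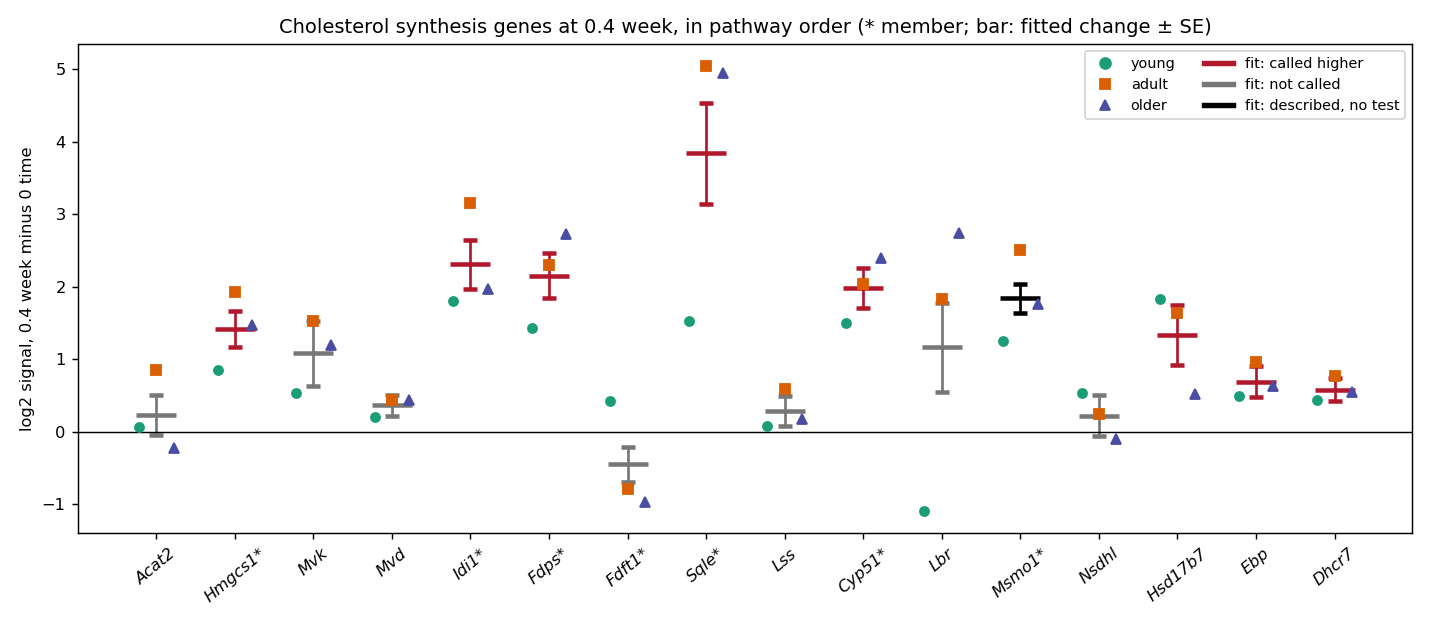
Log2 signal at 0.4 week minus 0 time for the 16 measured cholesterol synthesis genes, from acetyl-CoA on the left to cholesterol on the right, with 1 point per age group and a bar at the fitted change with its standard error. Sqle has the largest fitted change, 3.84, Msmo1 was described without a test, and Fdft1 is the only gene with a fitted change below 0.

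Of 24 fatty acid genes listed, 11 were measured and 10 tested, and 2 of the 10 were called higher at 0.4 week, against 14.1% of all probe sets: Acly, which supplies acetyl-CoA from citrate, with 1.07 (SE 0.23, adjusted p = 0.00639), and Acsl3, an acyl-CoA synthetase, with 0.66 (SE 0.12, adjusted p = 0.00266). Acsl3 was also called at 1 week, with 0.91 (SE 0.12, adjusted p = 0.000945). The median of the 10 at 0.4 week was 0.27, against -0.13 for all probe sets, and Fasn, fatty acid synthase, had a change of 0.28 (SE 0.17, adjusted p = 0.232).

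Scd, the desaturase of liver and fat, followed another course than Scd2. Its signal in time order was 205.9, 391.7, 633.8, 264.4, 2201.0 and 949.2 in young rats. It was 333.7, 410.3, 1396.5, 1201.9, 2151.8 and 2216.7 in adult rats. Older rats had 264.3, 599.7, 1813.6, 798.5, 4739.9 and 3387.7. The highest time was 4 weeks in young and older rats and 6 weeks in adult rats, whereas for the leading probe set of Scd2 it was 0.4 week at every age. The Scd difference was 0.80 on the log2 scale at 0.4 week (SE 0.38, adjusted p = 0.131), which was not called, and was called higher at 1 week, with 2.16 (SE 0.38, adjusted p = 0.00266).

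**Figure D4:**
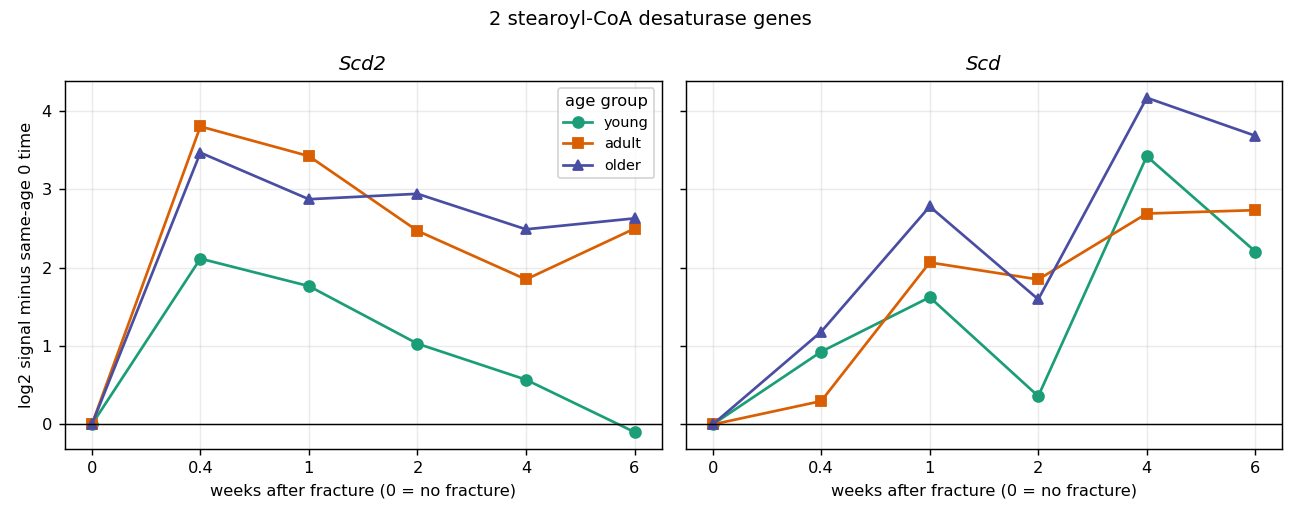
Log2 signal of Scd2 and of Scd minus the same-age 0 time array at 6 times after fracture, shown as evenly spaced categories, with 1 line per age group. By their leading probe sets, Scd2 stands highest at 0.4 week at all 3 ages, and Scd stands highest at 4 or 6 weeks.

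Among genes of sterol sensing and uptake, 5 of 14 were measured and 2 of the 5 were called higher at 0.4 week, against 14.1% of all probe sets. Insig1, which holds SREBP in the endoplasmic reticulum and is itself a known SREBP target, had 1036.2 (young), 1213.6 (adult) and 818.5 (older) at 0.4 week, against 417.1, 227.8 and 338.6 at 0 time. Its log2 change was 1.67 (SE 0.51, adjusted p = 0.0293) at 0.4 week and 1.52 (adjusted p = 0.0389) at 1 week. Lrpap1, a chaperone of LDL receptor family proteins, had 551.9, 460.7 and 428.3 at 0.4 week, against 220.3, 177.7 and 132.9 at 0 time. Its log2 change was 1.46 (SE 0.24, adjusted p = 0.0015) at 0.4 week and 1.13 (adjusted p = 0.00579) at 1 week. Both genes stood above all controls at 0.4 week at all ages. Vldlr, a receptor for triglyceride-rich lipoproteins, was called lower at 1 week, with -0.90 (SE 0.24, adjusted p = 0.0168), and Srebf1, which encodes an SREBP itself, had -0.56 (SE 0.57, adjusted p = 0.483) at 0.4 week.

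Some genes of sterol efflux, transport and storage were also called higher on the same arrays. Of 27 listed, 15 were measured, and 5 were called higher at 0.4 week and none lower, against 14.1% and 17.1% of all probe sets, with a median of 0.75, against -0.13 for all probe sets. The 4 named by size of change were Cyp7b1, an oxysterol hydroxylase, with 2.41 (SE 0.53, adjusted p = 0.00706), Apoe, the lipoprotein that carries cholesterol between cells, with 1.88 (SE 0.24, adjusted p = 0.000409), Soat1, which esterifies cholesterol, with 1.28 (SE 0.38, adjusted p = 0.0262), and Lipa, the lysosomal lipase, with 0.94 (SE 0.13, adjusted p = 0.000583). The Cyp7b1 controls were 139.4 (young), 32.7 (adult) and 19.4 (older), the last of them under the floor, so the size of its change and its place among the 4 depend on the floor. Apoe had 13486.5 (young), 10651.6 (adult) and 12725.3 (older) at 0.4 week, against 4270.2, 2672.8 and 3194.3 at 0 time, with no overlap. Of 5 measured isoprenoid genes, Fnta, a farnesyltransferase subunit, was called higher at 0.4 week, with 0.97 (SE 0.10, adjusted p = 0.00014).

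Markers of several cell types were counted on the same arrays, where 14.1% of all probe sets were called higher and 17.1% lower at 0.4 week. Of 6 macrophage markers, 3 (Cd14, Ctss and Lgals3) were called higher at 0.4 week and none lower, with a mean log2 signal of 9.50 to 9.67 at 0.4 week and 8.20 to 8.84 at 0 time. Of 10 bone matrix and osteoblast markers 5 were called higher and 1 lower, with means of 12.38 to 12.72 at 0.4 week and 10.10 to 12.63 at 0 time. Of 11 cell cycle genes 2 were called higher and none lower, with means of 9.36 to 9.88 at 0.4 week and 8.70 to 9.79 at 0 time. Of 12 adipocyte markers 5 were called lower and none higher, with means of 7.67 to 7.74 at 0.4 week and 8.34 to 8.55 at 0 time.

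The abundant cells of 0 time tissue gave lower signals early after fracture. All 8 erythroid and all 5 granulocyte markers and 14 of 15 skeletal muscle markers were called lower at 0.4 week, with median log2 changes of -3.21, -3.32 and -2.41. Of 12 Schwann cell and myelin genes 3 were called lower and 1 higher, near the shares of all probe sets, with a median of 0.10. The part of cell makeup in the signals of the 8 genes was not tested. Each array had been scaled to the same mean, and with quantile normalization or scaling to the median, 5 of the 6 tested genes were called higher at 0.4 week, as with the deposited scaling.

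**Figure D5:**
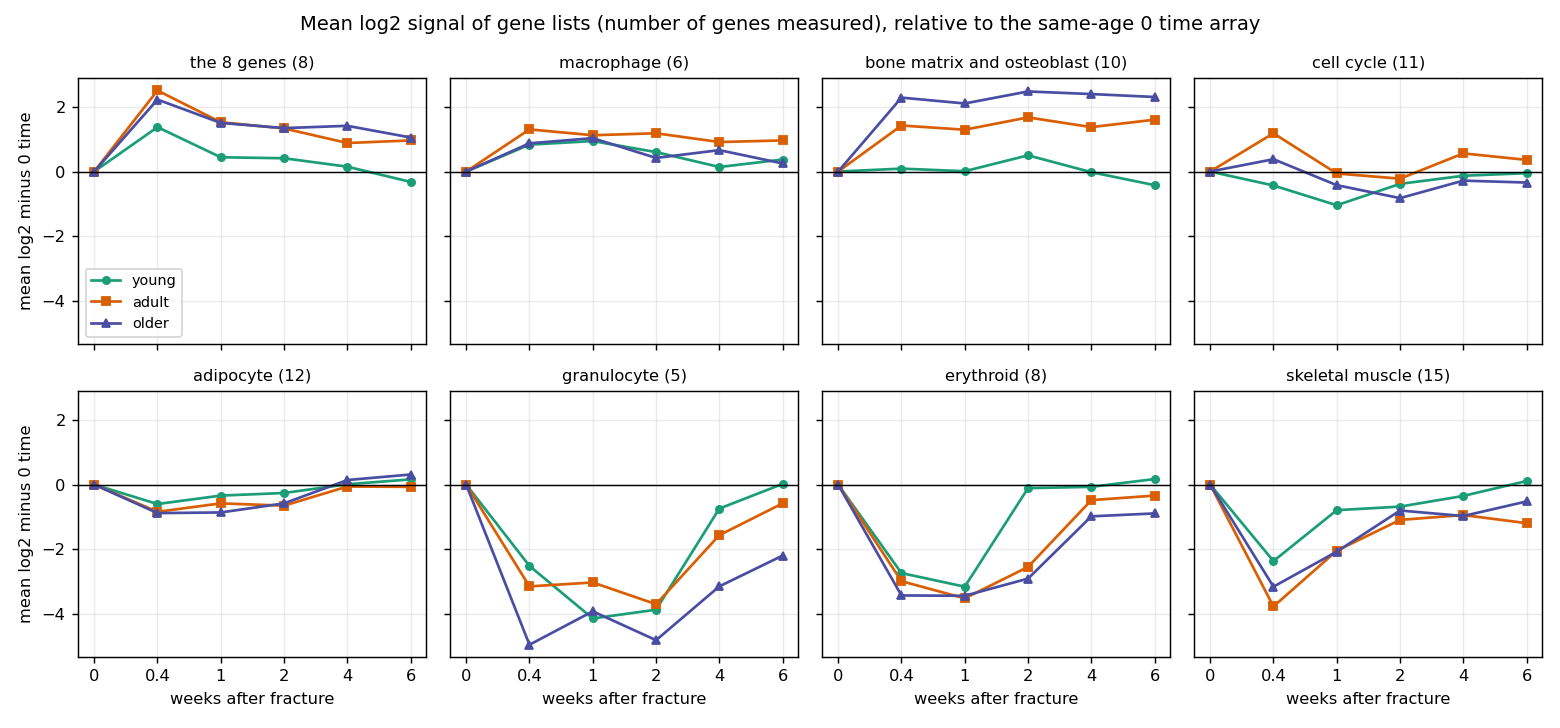
Mean log2 signal of the 8 genes and of 7 other lists minus the same-age 0 time array, at 6 times after fracture shown as evenly spaced categories, with 1 line per age group and the number of measured genes in each title. The means of the 8 genes, of the macrophage list and of the bone matrix and osteoblast list lie above 0 at 0.4 week at all ages. Those of the adipocyte, granulocyte, erythroid and skeletal muscle lists lie below, and that of the cell cycle list lies below in young rats only.

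Across the 18 arrays the leading probe sets of the 7 genes other than Fdft1 had pairwise Pearson r values of 0.60 to 0.92 over 21 pairs, on the log2 scale. With Fdft1 included, the 28 pairs ran from -0.68 to 0.92. Fdft1 had r = -0.49 with Msmo1 and -0.68 with Scd2. These arrays share the same ages, times and scaling, so r is a description. The probe sets most like Msmo1, among 3410 with a mean signal of at least 200 and a single symbol, were of Eno1 (r = 0.97), a glycolytic enzyme, Fabp5 (0.96), a fatty acid binding protein, Sec61b (0.95), Tmed2 (0.95) and Rpn1 (0.94), which serve the entry, transport and glycosylation of proteins in the secretory pathway. Those most like Scd2, among 3406, were S100a4 (0.97), Twf1 (0.96), Abracl (0.96), Anxa5 (0.96) and Pgam1 (0.96), the last of which is a glycolytic enzyme. No gene of the sterol pathway was among either 5, and the r of the other sterol genes apart from Fdft1 was 0.77 to 0.90 with Msmo1 and 0.62 to 0.92 with Scd2.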

How the data were processed

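RNA of whole femur tissue was measured on 18 Affymetrix rat arrays, 1 for each of 3 ages at 6 times. The authors processed the scans with Microarray Suite 5.0 and deposited 1 signal intensity per probe set and array, with every array brought to an average of 500. The number of arrays limits the precision. The arrays of the study's other 2 series and the detection calls were not analysed here.

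Signals under 20 were set to 20 and log2 values were fitted with limma 3.58.1 in R 4.3.3, with trend, over 8740 probe sets after 59 controls were left out. Week was a factor and age an additive term. P-values were adjusted by Benjamini and Hochberg over all 8740, at a threshold of 0.05. With 1 array per age and time, p-values of a time against 0 time measure the spread between arrays of 3 ages. Msmo1 and Scd2 entered the planned counts from 2 weeks on and of the age comparisons, which the Results give for the other 6 genes. Age contrasts used the 15 later arrays, or all 18 for the change from 0 time. In them the times after fracture served as the replicates of an age. Their p-values thus measure how the difference between ages varied across those times, and not the spread between rats of an age. The scripts were tested on simulated data.

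Genes were named through the platform annotation, with 6994 of 7018 gene IDs found in RefSeq: 7007 probe sets had 1 symbol, 308 several and 1425 none, and 1 with several Scd genes was left out. Hmgcs1 was named from the study's array description. The text names the 8 genes by their brightest probe set, every other gene called at 0.4 or 1 week in 3 lists (cholesterol, fatty acid, sterol sensing), up to 4 called genes of the efflux and isoprenoid lists, and the 5 probe sets most like Msmo1 and Scd2. The 6 other pathway genes, Fasn, Scd at other times, Srebf1 and the macrophage markers were named after their values were seen. The members and lists were chosen with earlier results of these data known. Genes of the lists without a probe set named here were not analysed here. Histidine motifs of the proteins were planned and not run.

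Alternatives tried were a floor of 1 in place of 20, adding 50 before log2, quantile and median scaling, a mean signal of at least 200, no trend, the mean of all probe sets, no age term, leaving out each age or the young 4- and 6-week arrays, and the t-test of the study's methods over the 3 ages.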

Additional observations from a re-analysis of the deposited data

Results flagged for a closer look

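The change from 0 time differed between older and young rats, by a limma interaction at an adjusted p under 0.05, for 2 leading probe sets of cholesterol synthesis genes: Sqle by 3.60 (SE 0.54, adjusted p = 0.00413) and Lbr by 3.06 (SE 0.69, adjusted p = 0.0319) on the log2 scale. For Sqle the control signal was 20.4 in older and 193.0 in young rats, and for Lbr, which encodes a sterol reductase of the nuclear envelope, it was 16.9 in older and 280.8 in young rats. The older Lbr control lay under the floor of 20 and so did that of Cyp7b1 (19.4), so the size of both differences depends on the floor. Cyp7b1 differed by 2.93, Fnta by 0.48 and AB004096_at, another probe set of Cyp51, by 1.82. M15114_g_at, annotated to Scd2, differed by 2.57, given as a description because the early values that chose Scd2 enter this contrast. All 6 differences share the same older and young control arrays, 1 of each age, so the spread between controls of an age was not measured. Groups of 3 arrays are too small to test for a far-lying array.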

How the results depend on the processing

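Alternatives that change the count of calls are as follows. At 0.4 week 5 of 6 tested members were called, and leaving out 1 age gave 1 to 6, with Fdft1 as the sixth, called lower without the young arrays. The cholesterol synthesis list had 8 calls, with 4 by the methods' t-test after adjustment and 1 to 9 without 1 age. At 1 week the 5 calls became 3 with the mean of all probe sets and 0 to 5 without 1 age. By the methods' t-test they became 0 after adjustment, when 7 of all probe sets were called, and 2 at its unadjusted threshold of 0.05. The list's 5 calls became 0 by the adjusted t-test and 0 to 6 without 1 age. The planned counts from 2 weeks on include Msmo1 and Scd2, which are described only, so the 6 other genes are given here. At 2 weeks the 3 calls of the 6 genes became 0 by the t-test after adjustment, when 2 of all probe sets were called. Without the young arrays 2 of the 6 were called higher and 1 lower, and without the adult or the older arrays none was. At 4 weeks the 1 call, Sqle, was kept with a floor of 1, an offset of 50, quantile scaling, the mean of all probe sets or a mean signal of at least 200. It was lost with median scaling (adjusted p = 0.0618 by limma), without the young 4- and 6-week arrays (0.0654) and by the t-test after adjustment. Leaving out the young arrays kept it, and leaving out the adult or the older arrays did not. At 6 weeks Sqle was called without the young arrays, and none of the 6 was called without the adult or the older arrays. Over all 8 members, Msmo1 and Scd2 included, the 0 calls at 6 weeks became 1 in 5 settings. These were a floor of 1, an offset of 50, a mean signal of at least 200, no young 4- and 6-week arrays and the t-test unadjusted. The causes were not tested. Neither age comparison changed its count over all 8 members.

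The age of the rats served as the block that pairs arrays with the same replicate number. Without this block Sqle stayed called at 4 weeks, and no count of the 6 genes or of the list changed by over 1.5 times. The values of single members that follow include Msmo1 and Scd2 at all times and in the age comparisons. Of 673 alternative values of single members, 591 kept their direction and side of the threshold, 48 lost a call, 19 gained 1, 2 without a test moved by over the spread between arrays (with the mean of all probe sets, Scd2 to 2.06 at 0.4 week and Msmo1 to 1.61 at 1 week) and 13 changed sign. Of the 13, Fdft1 at 1 week was called with all arrays and moved to 0.02 with the mean of all probe sets, and the other 12 were called neither way. With the mean of all probe sets Fdft1 at 0.4 week became 0.50, Cyp51 at 6 weeks 0.21 and Scd2 in older against young rats 0.29, the last also 0.09 without 0.4 week. Without the adult arrays Hmgcs1 at 1 week became -0.16. Without the older arrays Cyp51 at 4 weeks became -0.39, Hmgcs1 at 6 weeks -0.20 and Fdps at 6 weeks -0.34. Cyp51 at 6 weeks became 0.05 without the young 4- and 6-week arrays and 0.24 without all young arrays, and Hmgcs1 at 6 weeks became -0.0 with quantile scaling and with the t-test. Median scaling moved the median of all probe sets at 0.4 week to -0.02, against -0.13.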
